A study of Mus musculus with 8 samples.

Results

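The 10 heat shock and chaperone genes described here are *Hspa8*, *Hspa1a*, *Hspa1b*, *Hspa5*, *Hsp90aa1*, *Hsp90ab1*, *Hsph1*, *Hspb1*, *Dnajb1* and *Dnaja1*, out of 18473 genes kept from the deposited tables. They were selected by name, with no measured limit for entry, after *Hspa8* had been seen to be much lower in tumour cells than in other cells of these data. The tumour cell against other cell values that chose them are therefore given as a description, with no test, for every gene of the group. All 10 were found in the tables.

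The libraries came from GL261 tumours, which grow from a mouse glioma line implanted into the brain of C57BL/6 hosts (C57BL/6N in the study's methods), and from naïve brains. WT hosts were Irg1/Acod1 +/+ and KO hosts Irg1/Acod1 -/-, the KO allele being a cassette insertion in *Acod1*, the gene of the itaconate-producing enzyme of macrophages. Single cells were profiled by Drop-seq, which tags the 3′ end of each captured mRNA with a unique molecular identifier (UMI). There was 1 library for each genotype at the naïve condition (no implant, 2 mice named per library) and at the early (5 to 10 mm3), intermediate (20 to 25 mm3) and late (30 to 35 mm3) tumour volume (500 cells implanted, 1 mouse per library), 8 libraries in all. The genotype is that of the host, with the same GL261 line in all, and per the study's methods the hosts of different genotype were also of different sex at the early and intermediate stage. The labels place the implant in the right striatum and the methods in the frontal cortex, and they give no age. *Acod1* was counted at 6.99 to 157 CPM in macrophages of WT hosts and at 12.3 to 61 in those of KO hosts. CPM are counts per 1000000, here UMIs of a gene per 1000000 UMIs of a class in a library. Where these reads lie relative to the inserted cassette was not examined, so the counts are no check of the genotype. The study genotyped the mice by PCR and could not detect *Acod1* by qPCR in bone marrow-derived macrophages of KO mice.

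After filtering, 454 to 1000 cells per library and 5698 in all remained, with a median of 2597.5 to 5637.5 UMIs per cell and 2885345 to 9950713 UMIs per deposited table. At most 2 cell barcodes of a library recurred in another (0 to 0.281% of its cells). Clusters were formed without the listed chaperone and immediate early genes, with cell cycle genes kept, and were named from marker genes. Each class name thus stands for "-like" cells, and the 26 cells of 1 cluster stayed unnamed. Tumour-class cells (3367, of which 9 in naïve libraries were left out) formed clusters 10 and 11, led by *Col9a1*, *Col11a1* and *Col3a1*. Levels are CPM of all cells of a class in a library, given for sums of at least 5 cells. Each library is a separate preparation, so p-values measure the spread between libraries that differ in stage and genotype as well.

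Chaperones hold newly made or damaged proteins in a foldable state. *Hspa8* encodes the constitutive cytosolic Hsp70, *Hspa1a* and *Hspa1b* its stress-inducible counterparts, and *Hspa5* (BiP) the Hsp70 of the endoplasmic reticulum. *Dnajb1* and *Dnaja1* encode Hsp40 co-chaperones that stimulate the ATPase of Hsp70, and *Hsph1* (Hsp110) is an exchange factor for it. *Hsp90aa1* and *Hsp90ab1* encode the inducible and the more constitutive cytosolic Hsp90, and *Hspb1* the small heat shock protein Hsp27. On heat or proteotoxic stress, heat shock factor 1 binds inverted GAA repeats in the promoters of many of these genes, while *Hspa5* responds to unfolded proteins in the endoplasmic reticulum through the ER stress element. Immediate early genes such as *Fos* and *Jun* and heat shock genes are also known to be induced in brain cells during enzymatic dissociation at 37 °C, the temperature at which, per the study's methods, these tissues were digested.

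The promoters of the 4 genes that rose in tumour-bearing endothelial cells, and of *Hspb1*, which did not pass the test there, are printed from 250 bases before to 50 bases after a transcription start, as RefSeq places it on GRCm38.p6, 5′ to 3′ along the gene. Capitals mark the pair of inverted heat shock units, GAANNTTC or TTCNNGAA (each reads the same on both strands, and the pairs may overlap), and in *Hspa5* the ER stress element.
Hspa1a (chr17:34972107-34972406, minus strand): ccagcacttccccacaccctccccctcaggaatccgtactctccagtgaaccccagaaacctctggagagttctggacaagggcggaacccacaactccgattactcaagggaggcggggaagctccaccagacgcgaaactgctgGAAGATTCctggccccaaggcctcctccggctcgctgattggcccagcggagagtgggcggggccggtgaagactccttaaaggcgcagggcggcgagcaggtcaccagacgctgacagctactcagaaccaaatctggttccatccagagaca
Hspa1b (chr17:34959189-34959488, minus strand): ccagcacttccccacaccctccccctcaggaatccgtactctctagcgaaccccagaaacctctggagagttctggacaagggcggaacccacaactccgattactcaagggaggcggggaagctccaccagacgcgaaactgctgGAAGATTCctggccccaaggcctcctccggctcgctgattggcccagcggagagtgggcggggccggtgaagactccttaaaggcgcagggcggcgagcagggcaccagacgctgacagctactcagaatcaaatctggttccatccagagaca
Dnajb1 (chr8:83607925-83608224, plus strand): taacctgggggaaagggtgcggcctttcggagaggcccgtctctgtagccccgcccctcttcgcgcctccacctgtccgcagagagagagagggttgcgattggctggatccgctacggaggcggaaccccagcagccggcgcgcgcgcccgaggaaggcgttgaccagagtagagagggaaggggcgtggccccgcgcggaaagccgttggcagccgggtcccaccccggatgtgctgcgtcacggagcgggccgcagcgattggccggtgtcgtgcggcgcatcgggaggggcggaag
Hspa5 (chr2:34771840-34772139, plus strand): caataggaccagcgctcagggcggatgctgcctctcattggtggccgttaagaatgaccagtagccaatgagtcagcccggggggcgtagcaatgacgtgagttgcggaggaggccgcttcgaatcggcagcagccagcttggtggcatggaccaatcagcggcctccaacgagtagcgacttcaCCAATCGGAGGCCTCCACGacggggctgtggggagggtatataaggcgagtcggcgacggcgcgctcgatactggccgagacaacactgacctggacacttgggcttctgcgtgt
Hspb1 (chr5:135887669-135887968, plus strand): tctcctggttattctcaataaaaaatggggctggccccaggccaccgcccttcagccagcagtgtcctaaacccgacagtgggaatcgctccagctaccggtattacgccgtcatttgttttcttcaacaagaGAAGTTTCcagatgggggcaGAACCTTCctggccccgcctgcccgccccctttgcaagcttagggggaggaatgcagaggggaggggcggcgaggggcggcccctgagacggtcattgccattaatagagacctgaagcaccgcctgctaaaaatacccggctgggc
The *Hspa1a* and *Hspa1b* windows were identical at 296 of 300 positions (98.7%), and both held 1 heat shock pair, whose first base lies 104 bases before the start. The *Hspb1* window held 2 pairs, the printed *Dnajb1* window none, and the *Hspa5* window no pair but 1 ER stress element, at 65 bases before the start. Windows were found for 7 of the 10 genes, without *Hspa8*, *Hsp90aa1* and *Hsp90ab1*. Of these 7 genes, 5 held a heat shock pair in at least 1 window (*Hspa1a*, *Hspa1b*, *Hsph1*, *Hspb1* and *Dnaja1*), or 71.4%, against 17% of 27025 genes and 15.1% of 32851 windows. The ER stress element was in 0.119% of all windows and in 6 of 17 genes of a list of endoplasmic reticulum folding genes (35.3%). A match describes the letters only. *Hspa1a* (GRCm38 chr17:34969190-34972156, minus strand) and *Hspa1b* (chr17:34956436-34959238, minus strand) are neighbouring single-exon genes with near-identical sequence, so reads could be split between them, and their summed UMIs were tested too.

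*Hspa8* (chr9:40800984-40810087, plus strand, 9 exons in its longest transcript) was low in tumour cells of every library. Its level in tumour cells was 69.9 CPM in the WT early library, 56.6 in KO early, 34.1 in WT intermediate, 49.8 in KO intermediate, 49.8 in WT late and 73.1 in KO late. In all other named cells of the same libraries it was 761, 948, 562, 1137, 813 and 776, in the same order, and in the naïve libraries 656 (WT) and 739 (KO). The tumour cells thus held 4.38 to 9.43% of the level of their neighbours, and the ranges did not overlap. The log2 ratio ran from -4.51 to -3.41 with a median of -4.03, a level 16.4-fold higher in the other cells. Tumour cells were the lowest of the classes compared in 6 of 6 libraries.

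The other classes formed 1 band for *Hspa8*. Median levels over libraries ran from 522 CPM in astrocytes (360 to 740, n = 7 libraries) through 539 in ciliated ependymal cells, 592 in neurons, 627 in oligodendrocyte precursors, 715 in oligodendrocytes and 791 in both endothelial cells and lymphocytes, to 853 in microglia (734 to 974, n = 8) and 937 in macrophages (501 to 1263, n = 6). Each of these classes overlapped the next one in the order. The gap to the tumour cells, with a highest library of 73.1, was the one step in the order without overlap. The plot of *Hspa8* by cell class shows that step.

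**Figure D1:**
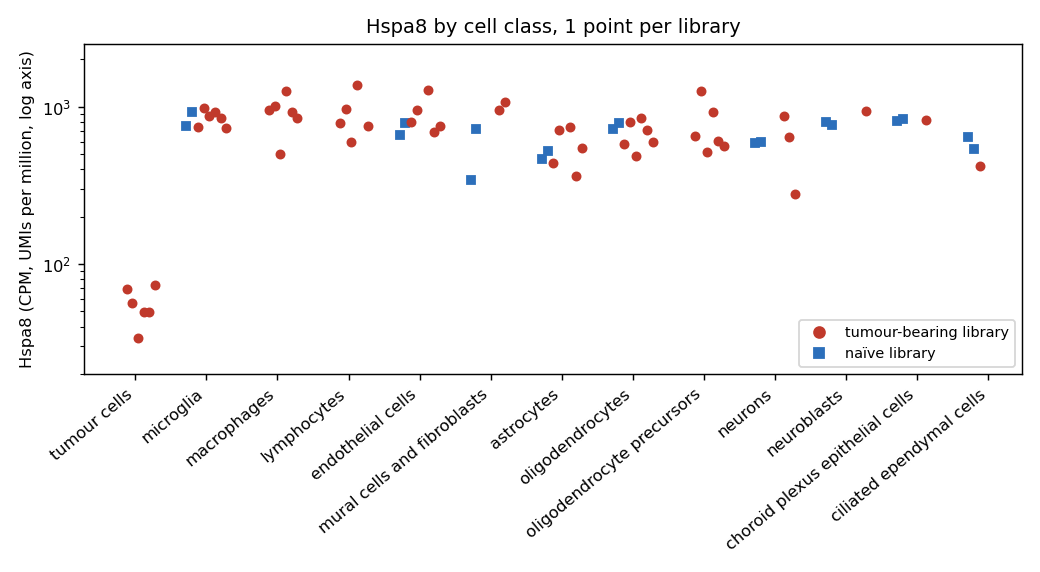
*Hspa8* level (CPM, log axis) in each cell class, 1 point per library with at least 5 cells of the class, tumour-bearing libraries as red circles and naïve libraries as blue squares. Tumour cells sit between 34.1 and 73.1, and every point of the other 12 classes lies at 280 or above.

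A few cells carried much of the little *Hspa8* that tumour cells had. *Hspa8* UMIs were counted in 745 of 3358 tumour cells (22.2%), 1499 UMIs in all, and 3 cells held 266 of them (17.7%). The highest, in the KO intermediate library, had 141 *Hspa8* UMIs among 100814, and 1045 UMIs of endothelial markers beside 3 of tumour markers. It gave 59.2% of the *Hspa8* of that library's tumour cells. The second, in WT late, had 66 *Hspa8* UMIs with 315 endothelial against 3 tumour marker UMIs, and the third, in WT early, had 59 with 7688 choroid plexus against 196 tumour marker UMIs. By library 14.8 to 35% of tumour cells had an *Hspa8* UMI, against 62.5 to 100% of endothelial cells, although the median depth was 4918 UMIs in the tumour class and 2679 in the endothelial class. No class known to lack *Hspa8* was at hand to set a background share. The summed markers of macrophages, oligodendrocytes, endothelial cells and astrocytes stood in tumour cells at 0.361 to 3.2% of their level in their own class, and those of microglia at 5.56 to 15.9%. The microglia list holds *Sparc*, at 786 to 2116 CPM in tumour cells. The part of such carried-over RNA in the *Hspa8* of tumour cells was not tested.

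*Hspa8* did not vary within the tumour compartment as it did across its border. The 3257 cells of cluster 11 had 51.6 CPM (exact Poisson 95% interval 49 to 54.3, counting error only) and the 101 cells of cluster 10 had 42.9 (24 to 70.7). The median log2 ratio to other cells moved by less than 1 SD of the libraries (0.42) under every processing alternative run, lying between -4.06 and -3.79. Single libraries moved more. With doublets removed KO intermediate went from -4.51 to -5.59 (49.8 to 23.5 CPM in tumour cells), and with cells named one by one WT early went from -3.44 to -4.16. Among 4352 genes compared over 62 sums of a class in a library, the level of *Nsd1*, a histone H3K36 methyltransferase gene, was the most like that of *Hspa8* (Pearson r = 0.82 of log2(CPM + 10)). *Nsd1* lay at 2.75 to 10.9 CPM in tumour cells and at 105 to 182 in the other cells of the same libraries. *Hint2* (r = 0.59), *Hcfc1r1* (0.56), *BC005537* (0.56) and *Snapc5* (0.54) followed. The sums share libraries, so these values only describe likeness.

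The other members divided into 2 kinds in tumour cells. The stress-inducible *Hspa1a* and *Hspa1b* and the small heat shock gene *Hspb1* were lower there than in the pooled other cells. *Hspa1a* counted 25.9, 6.32, 2.75, 0.418, 2.22 and 19 CPM in tumour cells of WT early, KO early, WT intermediate, KO intermediate, WT late and KO late. Its median log2 ratio to the other cells was -5.18 (range -8.12 to -3.56), that of *Hspa1b* -4.34 (-4.85 to -2.98) and that of *Hspb1* -4.63 (-5.85 to -4.10). All 3 were lower than in the other cells in 6 of 6 libraries, and 3 cells gave 47.1% of the *Hspa1a* and 57.7% of the *Hspb1* UMIs of all tumour cells. Unlike for *Hspa8*, tumour cells were in no library the lowest class for them. By median over libraries they ranked 5, 6 and 9 from the lowest of 13 classes for *Hspa1a*, *Hspa1b* and *Hspb1*. The *Hspb1* median of 3.63 CPM in tumour cells lay above that of macrophages (0.816) and microglia (1.85). The pooled other cells hold endothelial cells, with an *Hspb1* median of 1329, and mural cells and fibroblasts, with 518. In WT intermediate every other class of at least 5 cells had 0 UMIs of *Hspa1b* and *Hspb1*, so that tumour cells, at 1.5 and 2.25 CPM, were the highest class there, and the other-cell value rested on classes of fewer than 5 cells. These zeros came from few UMIs, and the 0 of 89853 in macrophages allowed up to 41.1 CPM (exact Poisson 95% interval).

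*Hsp90ab1* was the reverse case. Tumour cells had 7651, 8038, 8531, 8486, 8914 and 9144 CPM in the same order of libraries, the highest of all classes in 6 of 6 libraries, at a median log2 ratio of 1.32 (1.13 to 1.36). Its next highest class, the ciliated ependymal cells, reached 5437 to 6584. *Hsph1* stood at 208 to 259 in tumour cells with a median log2 ratio of 1.02, and *Dnaja1* at 180 to 255 with 0.52, both above the other cells in 6 of 6 libraries. *Dnajb1* (81.6 to 153, 0.43), *Hspa5* (1604 to 2249, 0.20) and *Hsp90aa1* (439 to 641, 0.09) lay above in 5 of 6.

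**Figure D2:**
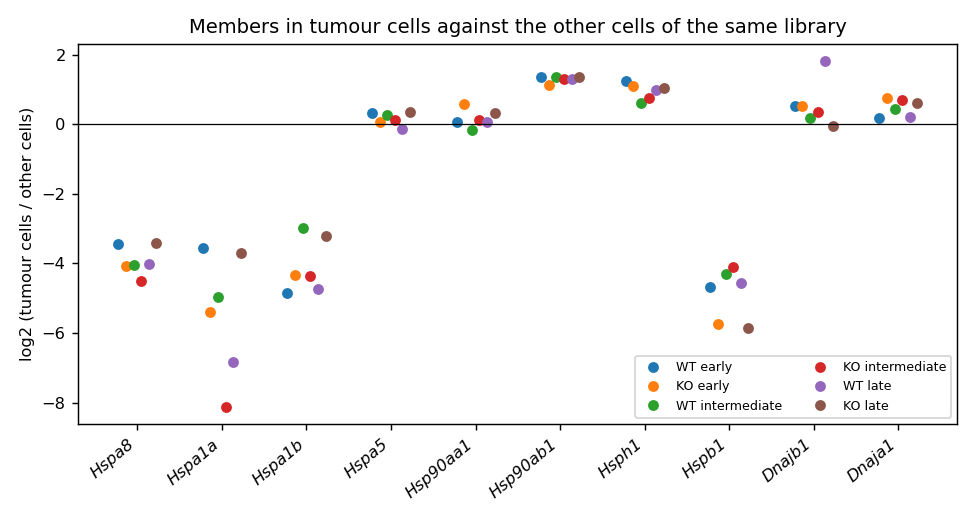
Log2 ratio of the level in tumour cells to that in all other named cells of the same library for each of the 10 genes, 1 coloured point per tumour-bearing library. *Hspa8*, *Hspa1a*, *Hspa1b* and *Hspb1* lie between -8.12 and -2.98, and *Hsp90ab1* and *Hsph1* lie above 0 in every library.

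The immediate early genes of tumour cells were also read beside these values. Their 16 genes summed to 3730 to 5682 CPM in tumour cells of the 6 libraries. Lymphocytes (2708 to 5644) and oligodendrocytes (1920 to 5608) of the same libraries overlapped that range, with *Hspa8* at 596 to 1368 and 486 to 852. Macrophages (8734 to 13500) and microglia (12206 to 23254) lay above it. Naïve astrocytes had 612 and 717 for the immediate early sum and 467 and 522 for *Hspa8*. *Hspa8* was above the 73.1 of the highest tumour library in each of these classes. The part of tissue dissociation in the *Hspa8* difference was not tested.

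Outside the tumour cells, the members marked different classes. *Hsp90aa1* was highest in ciliated ependymal cells, at 5580 (WT naïve), 4192 (KO naïve) and 4920 (WT early), above the 1043 to 1194 of the choroid plexus epithelial cells next in order. *Hsph1* was highest there as well (855 to 1206), and its neighbour in the order, the neurons (246 to 1119), overlapped it. *Hspb1* belonged to vessels, with 841 to 2940 in endothelial cells and 228 to 1090 in mural cells and fibroblasts, while it was at a median of 0 in oligodendrocytes, lymphocytes and neurons. The median of *Hspa1a* over all libraries was highest in endothelial cells (472 to 2362, median 1803), followed by mural cells and fibroblasts (192 to 371) and microglia (57.7 to 559), and that of *Hspa1b* was highest in endothelial cells too (127 to 776). That order did not hold in naïve brains. There microglia had 551 (WT) and 559 (KO) for *Hspa1a* against 472 and 564 in endothelial cells, and 236 and 283 for *Hspa1b* against 127 and 239. Over the 62 sums *Hspa1a* correlated most with *Hspa1b* (r = 0.82), and *Hsp90aa1* with *Hsph1* (0.75). The 5 genes most like *Hspa1a* outside the group were *Ecscr* (0.78) and *Cd34* (0.77), both of endothelial surfaces, *Klf2* (0.73), *Slc6a6* (0.73) and *BC028528* (0.72). Those most like *Hspa5* were *Calr* (0.87), *Hsp90b1* (0.83), *Pdia3* (0.82), *Psme2b* (0.77) and *Pdia6* (0.77), of which *Calr*, *Hsp90b1*, *Pdia3* and *Pdia6* encode folding factors of the endoplasmic reticulum.

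**Figure D3:**
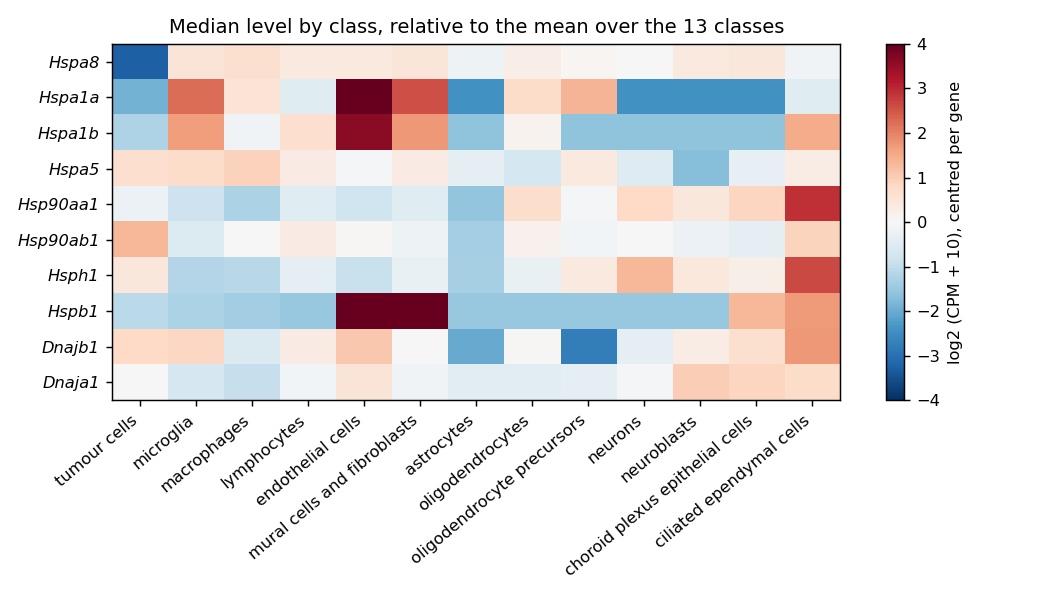
Heat map of the median level over libraries, log2(CPM + 10), of each of the 10 genes (rows) in 13 cell classes (columns), centred on the gene's mean over the classes. Values beyond 4 in either direction take the end colour. The dark blue cell of *Hspa8* is the tumour class (median 53.2), the highest class of *Hspa1a*, *Hspa1b* and *Hspb1* is the endothelial one, with microglia red as well for *Hspa1a* and *Hspa1b*, and that of *Hsp90aa1* and *Hsph1* the ciliated ependymal class.

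The study asked how resident brain cells change in the presence of a tumour, and tumour-bearing libraries were therefore compared with the naïve ones in each class, a contrast that did not choose the genes. In endothelial cells, the stress-inducible Hsp70 genes, their co-chaperone *Dnajb1* and the endoplasmic reticulum Hsp70 *Hspa5* were higher in tumour-bearing brains. These 4 of 9 genes tested passed edgeR's quasi-likelihood test, where 4.74% of 1498 genes were called higher and 0.534% lower. WT intermediate had 3 endothelial cells, under the limit of 5, and was left out. The sums held 85 (WT naïve), 98 (KO naïve), 38 (WT early), 17 (KO early), 17 (KO intermediate), 9 (WT late) and 16 (KO late) cells. *Hspa1a* was at 472 (WT naïve) and 564 (KO naïve) and at 1803 (WT early), 2331 (KO early), 1071 (KO intermediate), 2362 (WT late) and 2038 (KO late) CPM. The groups did not overlap, and the log2 fold change was 1.89 (SE 0.36, edgeR adjusted p = 0.00404).

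*Hspa1b* was at 127 and 239 in the naïve and at 669, 574, 363, 342 and 776 in the tumour-bearing libraries in the same order (log2 fold change 1.63, SE 0.38, edgeR adjusted p = 0.0160). The sum of both genes gave 1.81 (edgeR adjusted p = 0.00503). *Dnajb1* was at 35.8 and 43.4 against 287, 209, 76.5, 137 and 133 (2.19, SE 0.57, edgeR adjusted p = 0.0332). *Hspa5* was at 579 and 425 against 1031, 1287, 975, 1506 and 1839 (1.41, SE 0.34, edgeR adjusted p = 0.0232). For all 4 genes each of the 5 tumour-bearing sums lay above both naïve ones. The genes had been called in this same contrast. How many of all genes have such an order was not counted, here or in microglia. Some of the endothelial values rest on few UMIs or on 1 cell. In WT early 1 cell gave 33 of the 61 *Dnajb1* UMIs (54.1%) and 1 cell gave 159 of the 383 *Hspa1a* UMIs (41.5%), and *Dnajb1* had 4 UMIs in KO intermediate and 4 in WT late.

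The other 5 members tested gave no call in endothelial cells. *Hspa8* had a log2 fold change of 0.28 (95% interval -0.36 to 0.91), *Hspb1* of 0.39, *Hsp90ab1* of 0.16 and *Hsp90aa1* of 0.12, and *Dnaja1* of -0.68 (edgeR adjusted p = 0.242). *Hsph1* was too low to be tested. Among the listed partners, 0 of 10 tested cytosolic partners, 0 of 7 chaperonin and prefoldin genes and 0 of 3 mitochondrial chaperones passed. Of the endoplasmic reticulum folding genes 2 of 12 rose, namely *Pdia6*, a protein disulphide isomerase (1.51, edgeR adjusted p = 0.0205), and *Serpinh1*, a collagen chaperone (1.25, edgeR adjusted p = 0.0191).

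Immediate early genes moved with these members. In the same comparison 14 of 16 rose, with a median log2 fold change of 2.40 against 0.00 over all genes, led by *Fosb* (5.71), *Fos* (4.94) and *Socs3* (3.76), and 8 and 7 rose without the WT or the KO naïve library. Their summed level was 4346 and 5454 in the naïve and 13899 to 33362 in the tumour-bearing libraries. Endothelial markers summed to 23760 to 25212 in naïve and 14845 to 23210 in tumour-bearing sums, macrophage markers to 120 to 276 (8 of 12 at 0, *Arg1* and *Ccr2* among them) and 68.5 to 2061 (3 of 12 at 0), mural and fibroblast markers to 1445 to 2713 and 798 to 5918, and tumour markers to 65.1 to 112 and 165 to 470. Microglia markers summed to 1625 to 1901 in naïve and 2420 to 3868 in tumour-bearing sums, with *Tmem119* and *Fcrls* at 0 in the latter. Astrocyte markers went the other way, from 576 to 1104 in naïve to 174 to 344 in tumour-bearing sums. Lymphocyte markers were at 0 in both naïve sums and at 0 to 231 in the others. The part of dissociation and of other cells in the endothelial differences was not tested, and fewer of 1 endothelial subtype cannot be told apart from a changed level per cell.

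The endothelial calls rested on both naïve libraries and on how cells were assigned. Without the WT naïve library none of the 4 passed (*Hspa1a* 1.61, edgeR adjusted p = 0.198), nor without the KO naïve library (*Hspa1a* 2.11, edgeR adjusted p = 0.0647), though all 4 stayed positive. None passed with another tSNE seed, where the log2 fold changes were 1.33 for *Hspa1a*, 1.25 for *Hspa1b*, 2.02 for *Dnajb1* and 1.37 for *Hspa5*. None passed with cells named one by one either, and there *Hspa1a* was at 0.87, *Hspa1b* at 0.81 and *Dnajb1* at 1.01, while *Hspa5* was at 1.55. Both naïve libraries carry the later running numbers of the deposit, as do only some of the tumour-bearing ones. What the numbers stand for is not given, and their part in the contrasts with naïve brains was not tested. Among the 4 libraries with later numbers, 2 naïve and 2 tumour-bearing, *Hspa1a* (1.51), *Hspa1b* (1.65) and *Dnajb1* (2.32) passed, and *Hspa5* (1.06, edgeR adjusted p = 0.132) did not. With genotype also in the model, so few libraries give a poor measure of their spread.

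Microglia showed the opposite direction for the inducible Hsp70 genes. Here 2 of 8 genes tested were lower in tumour-bearing brains and none higher, where 9.98% of 3147 genes were called higher and 7.18% lower. *Hspa1a* was at 551 (WT naïve) and 559 (KO naïve) and at 281 (WT early), 339 (KO early), 57.7 (WT intermediate), 108 (KO intermediate), 204 (WT late) and 164 (KO late), without overlap (log2 fold change -1.38, SE 0.37, edgeR adjusted p = 0.0139). *Hspa1b* was at 236 and 283 against 178, 56.5, 0, 60.7, 38.2 and 114, without overlap too (-1.41, SE 0.43, edgeR adjusted p = 0.0320). The WT intermediate microglia were 5 cells, with 1 UMI of *Hspa1a* and 0 of *Hspa1b*. The sum of both fell by 1.44 on the log2 scale (edgeR adjusted p = 0.0133). *Hspa8*, at 752 and 929 against 734 to 974, gave no call and overlapped fully. Among the 4 libraries with the later running numbers, again 2 naïve and 2 tumour-bearing, *Hspa1a* was called lower (-1.25, edgeR adjusted p = 0.0241). *Hspa1b* gave no call there (-0.82, edgeR adjusted p = 0.193), and *Hsp90ab1* was called higher (0.59, edgeR adjusted p = 0.0484).

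Of the listed genes in microglia, *Bag1*, an exchange factor of Hsp70 (1.11, edgeR adjusted p = 0.0217), rose and *Chordc1*, an Hsp90 partner (-1.28, edgeR adjusted p = 0.0280), fell among 17 cytosolic partners. *Hspa9*, the mitochondrial Hsp70, rose (1.09, edgeR adjusted p = 0.0343), as did *Creld2*, an endoplasmic reticulum stress gene (1.82, edgeR adjusted p = 0.0139), each the single call of 3 and 16 genes tested, and 0 of 11 chaperonin and prefoldin genes passed. Immediate early genes were mixed, *Nr4a1* (2.79), *Nfkbia* (1.87) and *Atf3* (1.08) being higher and *Jun* lower (-1.59) of 16, and their sum overlapped (17031 and 20040 against 12206 to 23254). Naïve microglia were mostly of cluster 15, led by *Csf1r* and *P2ry12*, and tumour-bearing ones of cluster 14, led by *Ccl4* and *C1qa*. Microglia markers summed to 27585 to 28691 in naïve and 10863 to 16848 in tumour-bearing sums, and macrophage markers to 716 to 748 (5 of 12 at 0) and 2024 to 6025 (1 of 12 at 0). Whether cells of another kind in the tumour-bearing class lowered *Hspa1a* was not tested. Neither call held without the WT naïve library (*Hspa1a* -1.58, edgeR adjusted p = 0.121) or the KO naïve library (-1.32, edgeR adjusted p = 0.236).

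The difference between both classes was itself tested, a test added after these values had been seen and run under none of the processing alternatives. In 14 sums of the 7 libraries that had both, with the library as a block, the tumour-bearing against naïve log2 fold change was larger in endothelial cells than in microglia by 3.26 for *Hspa1a* (SE 0.44, edgeR adjusted p = 3.55e-06), by 3.03 for *Hspa1b* (edgeR adjusted p = 1.08e-05) and by 2.54 for *Dnajb1* (edgeR adjusted p = 0.00189). Of all 4404 genes tested, 127 (2.88%) differed in this way. For *Hspa5* the difference was 0.73 (95% interval -0.15 to 1.62, edgeR adjusted p = 0.488) and for *Hspa8* 0.33 (-0.49 to 1.14).

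**Figure D4:**
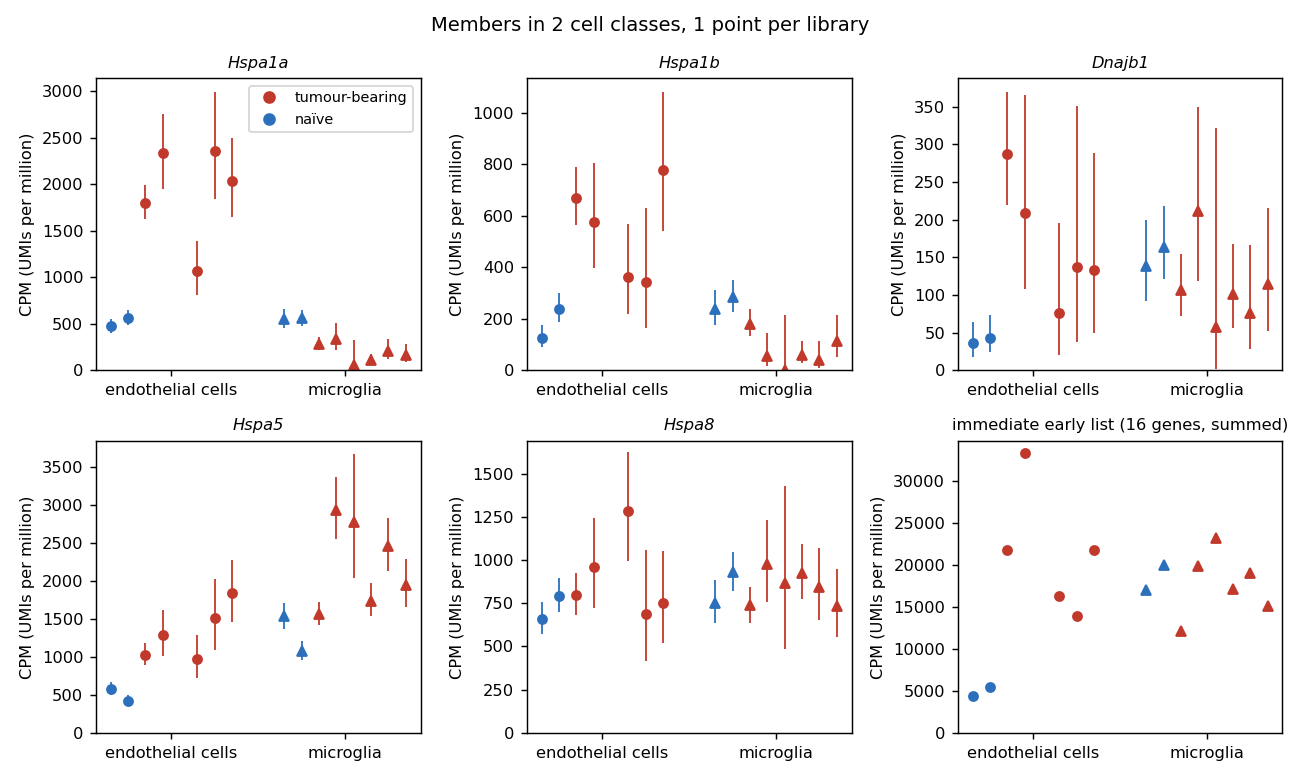
Level (CPM, from 0) of 5 members and of the summed immediate early list in endothelial cells (circles) and microglia (triangles), 1 point per library, naïve in blue and tumour-bearing in red, with exact Poisson 95% intervals for single genes. In endothelial cells the naïve points of *Hspa1a*, *Hspa1b*, *Dnajb1* and *Hspa5* lie below all tumour-bearing ones, in microglia those of *Hspa1a* and *Hspa1b* lie above them, and *Hspa8* overlaps in both.

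In oligodendrocytes 0 of 8 genes passed, with 1.58% of 2664 genes called higher and 0.676% lower, and *Hspa8* at 719 and 785 against 486 to 852 (278 genes had an unadjusted p under 0.05). DESeq2 called 0 members as well. *Fosb* (3.51, edgeR adjusted p = 0.0386) and *Fos* (2.81, edgeR adjusted p = 0.00681) rose there among 9 immediate early genes tested. In astrocytes only *Hspa8*, *Hspa5* and *Hsp90ab1* could be tested and 0 passed, where 0.493% of 609 genes were called higher and 0.493% lower (48 had an unadjusted p under 0.05), and DESeq2 called 0 of them as well.

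Within the tumours, macrophages (TAM II) were compared with microglia (TAM I) of the same library. The inducible Hsp70 genes and *Dnajb1* were lower in macrophages, 3 of 9 genes tested, where 11.6% of 4061 genes were called lower and 17.1% higher. *Dnajb1* was at 37.5 (WT early), 38.4 (KO early), 33.4 (WT intermediate), 22.1 (KO intermediate), 28 (WT late) and 76 (KO late) in macrophages and at 107, 212, 57.7, 101, 76.5 and 114 in microglia. It was lower in 6 of 6 libraries (log2 fold change -1.52, SE 0.31, edgeR adjusted p = 6.56e-04). *Hspa1a* was at 68.5, 79, 0, 68.7, 55.9 and 175 in macrophages against 281, 339, 57.7, 108, 204 and 164 in microglia, lower in 5 of 6 libraries (-1.30, SE 0.30, edgeR adjusted p = 0.00221). The WT intermediate microglia were 5 cells, and the 57.7 CPM of either gene there stood for 1 UMI. *Hspa1b* fell by 1.92 (SE 0.43, edgeR adjusted p = 0.00184), and the sum of both genes by 1.47 (edgeR adjusted p = 3.93e-04), on the log2 scale. With cells named one by one the calls of *Hspa1a* and *Hspa1b* were lost, and at 500 genes per cell those of *Dnajb1* and *Hspa1b*. Over the alternatives in which the gene could be tested, the log2 fold change lay at -1.78 to -0.72 for *Hspa1a*, -2.61 to -0.94 for *Hspa1b* and -1.90 to -0.94 for *Dnajb1*.

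*Hsp90ab1* was at 2738 to 3930 in macrophages and 1847 to 3453 in microglia of the tumours (0.42, edgeR adjusted p = 0.0525), and *Hspa8* at 501 to 1263 and 734 to 974 (0.22, 95% interval -0.12 to 0.56). Of the immediate early genes, *Dusp1* (0.85) and *Fosb* (0.72) were higher in macrophages and 6 of 16 lower, led by *Egr1* (-2.97), *Jun* (-2.25) and *Atf3* (-1.91). The chaperonin genes *Cct6a* (0.74) and *Cct2* (0.62) rose. *Dnajb11* (0.86) and *P4hb* (0.76), endoplasmic reticulum folding genes, were higher as well, and *Herpud1* (-1.43), *Ddit3* (-0.75) and *Atf4* (-0.57), genes of its stress response, were lower. None of 19 cytosolic partners and 5 mitochondrial chaperones passed. Microglia markers summed to 991 to 3497 in macrophages.

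Host genotype and tumour stage gave no call for any member. KO against WT, with the stage as a block, was tested for 10 members in tumour cells, 8 in microglia and 9 in macrophages, and 0 passed, where 0% of 14359, 3147 and 6561 genes were called by edgeR's quasi-likelihood test (918, 120 and 302 genes had an unadjusted p under 0.05). DESeq2 called 73, 0 and 8 genes and no member. For *Hspa8* in tumour cells the log2 fold change was 0.31 (95% interval -0.21 to 0.83). Late against early tumour cells gave 0 of 10 members and 0% of 14359 genes (1033 with an unadjusted p under 0.05, 20 by DESeq2), with *Hspa8* at -0.12 (-0.76 to 0.52). Without the KO late library 1 member, *Hspa1a*, was called lower in late tumours. The other lists had 0 calls in all 4 comparisons.

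The members were also compared by the share of UMIs from 28 cell cycle genes among tumour cells, where 3 of 10 passed, 2 higher and 1 lower, shares near those of all genes (14.7% of 12425 genes called higher and 16.1% lower). Of each library's tumour cells, the 1 in 3 with the highest share (high-share cells) were set against the 1 in 3 with the lowest (low-share cells), as ranges of a score and not as cell types. *Hsph1* (0.31, SE 0.07, edgeR adjusted p = 0.00266) and *Hsp90aa1* (0.21, SE 0.08, edgeR adjusted p = 0.0462) were higher in the high-share cells. *Hsp90aa1* fell from 426 to 407 CPM in WT intermediate and was higher in the other 5 libraries, and its call was lost under 12 of 20 alternatives, with log2 fold changes of 0.13 to 0.33 over all 20. *Hsph1* rose in 6 of 6 libraries, from 224, 180, 185, 171, 214 and 191 to 252, 231, 207, 248, 247 and 251 CPM in WT early, KO early, WT intermediate, KO intermediate, WT late and KO late. *Hspa8* did not follow (0.06, 95% interval -0.31 to 0.43).

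*Hspa1a* was lower in the high-share cells (-2.08, SE 0.58, edgeR adjusted p = 0.0125). This rested on the WT early library, with 71 UMIs in the low-share and 1 in the high-share cells, 69 of them in the choroid plexus marker-bearing cell described above, and without that library the log2 fold change was -0.83 and did not pass. Among the partners, 12 of 14 chaperonin and prefoldin genes rose, led by *Pfdn4* (0.46), *Pfdn6* (0.44) and *Tcp1* (0.43), and *Pfdn5* fell (-0.25). Of 30 cytosolic partners tested 10 rose, among them *Fkbp5* (0.58), *Hspa14* (0.58) and *Ptges3* (0.50), and 4 fell, led by *Cryab* (-1.05), a small heat shock gene. Of 8 mitochondrial chaperones 4 rose, led by *Hspd1* (0.38), *Trap1* (0.36) and *Hspe1* (0.29). Of 19 endoplasmic reticulum folding genes *Atf4* rose (0.45) and *Dnajb9* (-0.95) and *Xbp1* (-0.29) fell. Of the 16 immediate early genes 14 were lower, led by *Dusp1* (-1.68), *Zfp36* (-1.33) and *Btg2* (-1.15). The 28 cell cycle genes, which defined the split, were all higher. Median depth differed as well, being higher in the high-share cells in 5 of 6 libraries (3642 against 5578 UMIs in KO intermediate, but 5112.5 against 4472 in KO late), and its part was not tested.

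**Figure D5:**
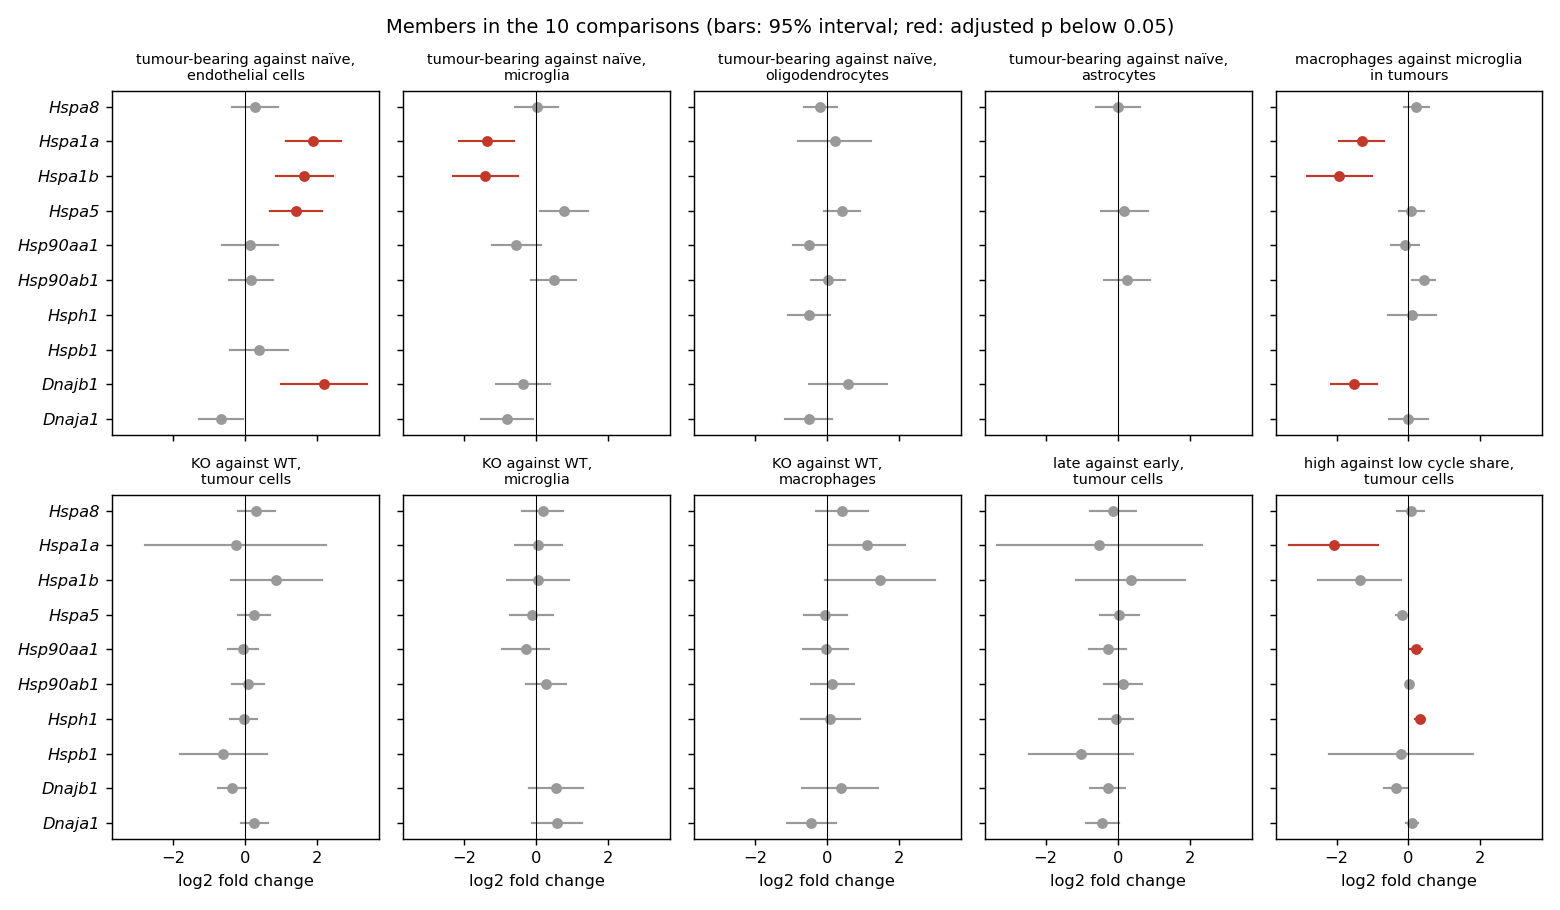
Log2 fold change of each member tested (points) with its 95% interval (bars) in the 10 comparisons, red where the edgeR adjusted p was below 0.05. The red points are the 4 higher genes in endothelial cells, the 2 lower in microglia, the 3 lower in macrophages against microglia, and *Hsph1*, *Hsp90aa1* and *Hspa1a* in the cycle comparison, and the KO and stage panels hold none.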

How the data were processed

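Drop-seq libraries of WT and KO naïve and tumour-bearing brains were sequenced on a NextSeq 500. The authors perfused the mice with ice-cold buffer, dissociated the tissue enzymatically and removed myelin with beads. The deposited tables hold raw UMI counts per gene and cell barcode, 3000 barcodes per library, and are not normalized. The submitters' processing notes name bcl2fastq 2.0, STAR and GRCm38 (mm10), and the version of STAR and the annotation are not given in the sources used here. Gene positions are those of GENCODE M21 on GRCm38.

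Of each table the 1000 deepest barcodes were taken. A gene had to be seen in 30 cells or more, and a cell had to hold 1000 genes or more. Clusters came from tSNE on 50 principal components (Rtsne 0.17, perplexity 50) and HDBSCAN (scikit-learn 1.9.0, at least 19 cells per cluster), leaving out 98 listed genes. The 294 unassigned cells took the majority of their 15 nearest clustered cells. Doublets were kept, and removed in an alternative. UMIs were summed per library and class of at least 5 cells and tested with edgeR 4.0.16 (TMM, filterByExpr, quasi-likelihood) over all genes at a Benjamini-Hochberg adjusted p of 0.05, with genotype as a covariate or stage or library as a block. The tests were checked on simulated counts. Counting can split reads between near-identical copies such as *Hspa1a* and *Hspa1b*, so the values of each are uncertain. Genes named beside the members are up to 3 per list, direction and comparison with the largest fold change past the threshold. The members, lists and tests were chosen with earlier results of these data known. Exact Poisson intervals cover counting error only, and intervals of fold changes come from the edgeR fit and the spread between libraries.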

Additional observations from a re-analysis of the deposited data

Results flagged for a closer look

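In 12 of 79 groups of 4 to 10 libraries of 1 class, 1 library stood apart from the others by Dixon's test at the 95% level. That test assumes normally spread values. Where all other libraries were at 0, any UMI in 1 library stood apart, so no number due to chance can be given. *Hspa5* in macrophages was at 2790 CPM (UMIs per 1000000 UMIs) in WT late against 1836 to 2145 in the other libraries, and in lymphocytes at 2484 in WT intermediate against 1199 to 1526. *Dnajb1* stood high in KO late in macrophages (76 against 22.1 to 38.4), in lymphocytes (171 against 49.7 to 81.5) and in astrocytes (125 against 0 to 29.6), and in KO early in microglia (212 against 57.7 to 114). *Hspb1* was at 164 in KO late microglia against 0 to 3.7, at 29.6 in KO early astrocytes and at 45.5 in KO early oligodendrocytes, each of the latter against 0. *Hspa1a* was at 44.1 in WT early and *Hspa1b* at 65.4 in WT late astrocytes, each against 0, and *Dnaja1* at 283 in WT early lymphocytes against 175 to 200. Several of these rest on few cells.

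The tumour-bearing against naïve log2 fold change differed between endothelial cells and microglia by 3.26 for *Hspa1a*, 3.03 for *Hspa1b* and 2.54 for *Dnajb1*. This edgeR test of the difference was added after the values of both classes had been seen, and was run under none of the processing alternatives.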

How the results depend on the processing

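The count of members called varied with the assignment of cells and with single libraries. In endothelial cells, 4 without changes, it was 2 with Leiden clustering, 0 with another tSNE seed, 2 with unassigned cells left out, 0 with cells named one by one, and 0 to 4 without 1 library in turn. In microglia, 2 otherwise, it was 1 with another tSNE seed, 0 with unassigned cells left out, 0 at 500 genes per cell, 1 with DESeq2, and 0 to 3 without 1 library in turn. Macrophages against microglia, 3 otherwise, gave 1 at 500 genes per cell and 5 with no filter on low counts. Late against early tumour cells gave 0 to 1 without 1 library in turn. The cycle comparison, 3 otherwise, gave 1 with DESeq2, 1 with only the libraries of the later running numbers in the deposit, 0 without the library block, 1 with each library split into 2 parts by cycle share in place of 3, and 1 to 4 without 1 library in turn. None of the 12 called fold changes turned its direction under any alternative in which the gene could be tested. The cause of these shifts was not tested, and the 2 naïve libraries set the precision of every comparison with naïve brains. DESeq2 called 73 genes where edgeR called 0 for KO against WT in tumour cells, 8 against 0 in macrophages and 20 against 0 for late against early. Depth limits *Hspa1a* (2 to 75 UMIs in the tumour cells of a library), *Hspa1b* (12 to 37) and *Hspb1* (6 to 27). No paired analysis was possible by replicate number because each genotype and condition has 1 library, and pairing was instead by library (within-library comparisons) or by stage (KO against WT).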
